A study of Mus musculus with 8 samples.

Results

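The 29 genes described here encode the enzymes, carriers and regulators of fatty acid oxidation in mitochondria and peroxisomes. They were taken by symbol from a list of named genes, by a rule that sets no threshold on a measured value, and all 29 were found among the 22962 genes of the FPKM table (reads of a gene divided by its length and by the depth of the library). By textbook location, 18 are mitochondrial, 4 are peroxisomal, 3 are found in both organelles, 1 is cytosolic and 3 are regulators. The cells were wild-type (WT) mouse cells of the stromal vascular fraction, the mixed cells of fat other than mature fat cells, labelled as gonadal tissue and differentiated into adipocytes. They received DMSO, a solvent used as the control, or DoxSa, with day 6 given for the treatment, and each treatment had 4 libraries. DoxSa is used here as the labels write it, in a series on 1-deoxysphingolipids and inflammation of adipose tissue. The labels used here give no dose, length of exposure, sex or age, and do not say whether each library had its own culture or animal, so a p-value reflects the spread between libraries alone, which may be technical.

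Fatty acids enter mitochondria as carnitine esters. A repeating cycle of dehydrogenation, hydration, dehydrogenation and thiolysis then cuts them into acetyl-CoA, while electrons leave through electron transfer flavoprotein to the respiratory chain. Peroxisomes run a similar cycle on very long and branched chains, with a multifunctional protein for the middle steps and no carnitine gate. In white fat cells this oxidation is usually modest beside storage and lipolysis, and the nuclear receptor PPAR alpha and its coactivator PGC-1 alpha are known inducers of many of its genes in liver, muscle and brown fat.

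Library totals recovered from the FPKM steps lay between 39213008 and 41365861 reads, and 0.313% to 0.325% of a library's reads fell on the 29 genes. Of the markers of adipocytes, the labelled cell type, 14 of 14 were above the level filter, with Fabp4, a fatty acid carrier, at mean levels of 8698 FPKM under DMSO and 8852 FPKM under DoxSa and Adipoq, an adipocyte hormone, at 774 and 772 FPKM. Macrophage markers were also abundant, with Lyz2, a lysozyme, at 4631 and 5051 FPKM. The brown fat gene Ucp1 had at most 6 reads in any library and the skeletal muscle gene Ckm at most 4. Other genes of their lists were measured, however. Above the level filter were 5 of 9 brown and beige markers and 2 of 6 skeletal muscle markers. Among them, Cox7a1 had means of 162 and 146 FPKM and Acta1 of 2.10 and 1.74 FPKM under DMSO and DoxSa. In bulk RNA, fewer cells of a type and less RNA per cell cannot be told apart.

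Few differences between DoxSa and DMSO were detected among the fatty acid oxidation genes. Of the 26 members above the filter of a mean of 0.5 FPKM, 1 fell, 0 rose and 25 did not pass the test (limma on log2(FPKM + 1), Benjamini-Hochberg adjusted p under 0.05). The member that fell was Acaa1b, a peroxisomal thiolase, which cuts acetyl-CoA from the shortened chain. Across all 12060 genes tested, 5.90% were called, 2.02% lower and 3.88% higher, so the members' share of 3.85% lay near the background. The 3 members below the filter were Cpt1b, Ppara and Ppargc1a, which are described below by their reads.

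Differences between treatments were small as well as mostly uncalled. On the log2(FPKM + 1) scale, the median difference of the 26 members was -0.01 and their median size without sign was 0.03, beside a median difference of 0.01 and a median size of 0.06 over all tested genes. The sign was negative for 20 members and positive for 6, and over all 12060 tested genes it was negative for 5221 and positive for 6839. The sign of 12 of the 26 was not stable and turned under at least 1 of the 16 alternative settings. Unadjusted p lay under 0.05 for 3 members (Acadvl, Hadhb and Acaa1b), or 11.5%, beside 19.8% of all tested genes.

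**Figure D1:**
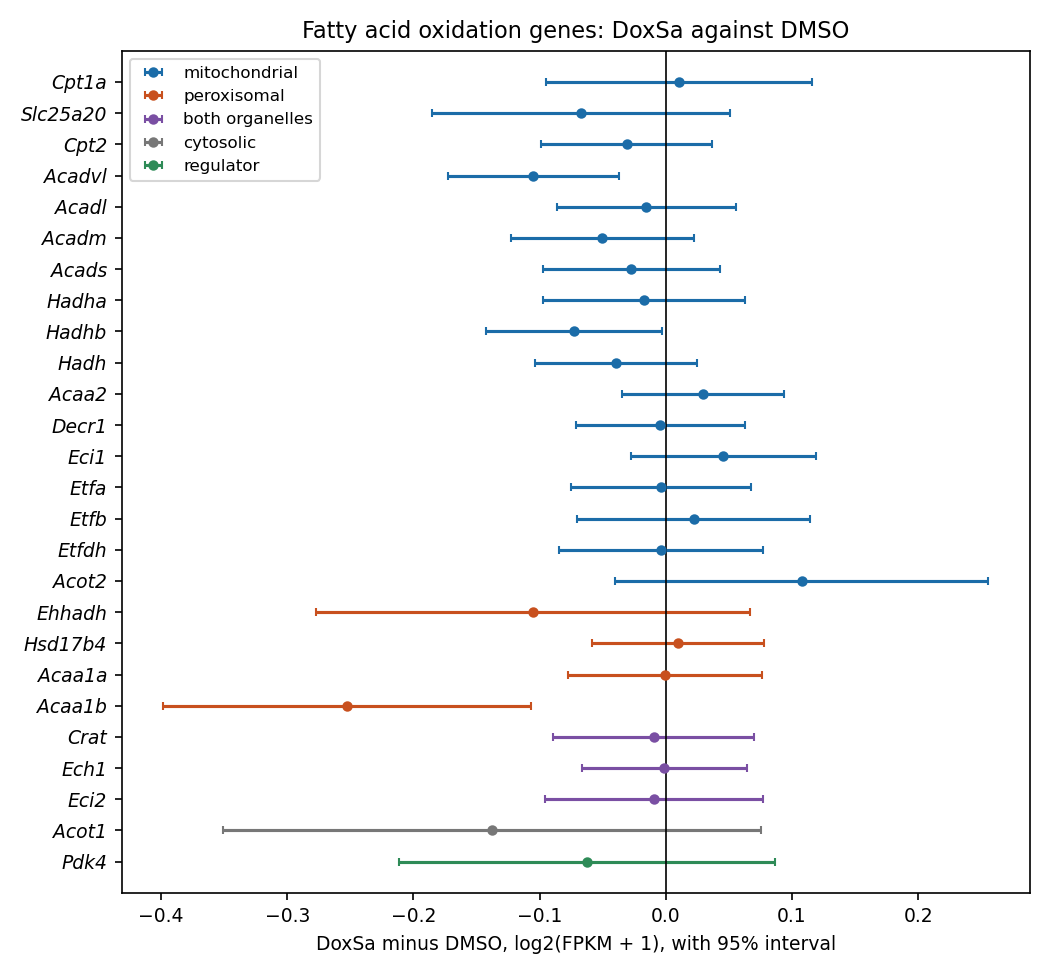
Difference between DoxSa and DMSO in log2(FPKM + 1) for each of the 26 tested members (points) with 95% intervals of the limma fit (bars), coloured by location, n = 4 libraries per group. Acaa1b lies farthest from 0, at -0.25, and the intervals of Acadvl, Hadhb and Acaa1b do not reach 0.

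The precision of these libraries bounds what could have been missed. On log2(FPKM + 1), the 95% interval lay within a 1.1-fold change in either direction for 18 of 26 members (69.2%), beside 25.5% of all tested genes. It lay within a 1.2-fold change for 23 members (88.5%), beside 80.8%. The added 1 shrinks differences and intervals of genes at low levels, so these shares depend on the scale. By limma-voom on the recovered reads, 22 members (84.6%) lay within a 1.2-fold change, beside 63.9% of all tested genes. For a 1.1-fold change the members' share was unchanged and that of all tested genes was smaller. Bounds and the level range used next were set after the values were seen. Among genes between 20 and 210 FPKM, the range that holds 20 of the members, the interval lay within 1.1-fold for 17 of the 20 (85%) and for 45.6% of 2556 genes. The median coefficient of variation within groups was 2.29% for these 20 members and 3.91% for genes of that range. The groups did not overlap for 2 of the 26 members (7.69%), Acadvl and Hadhb, where 12.5% of all tested genes had groups apart.

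**Figure D2:**
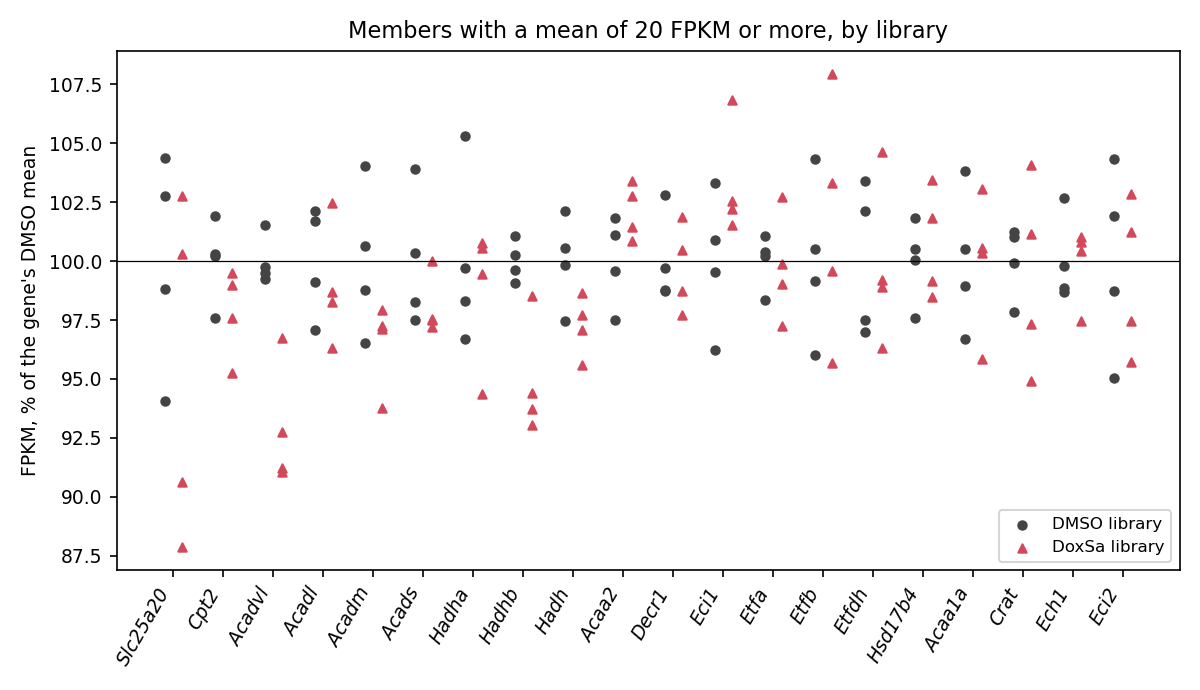
FPKM of the 20 members with a mean of at least 20 FPKM, each library as a percentage of the gene's DMSO mean (circles DMSO, triangles DoxSa, 4 libraries each; the axis does not start at 0). All values lie between 87.9% and 108% of the DMSO mean, and the 2 groups are apart for Acadvl and Hadhb.

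The carnitine shuttle did not pass the test at any of its tested steps. Cpt1a encodes the liver-type carnitine palmitoyltransferase of the outer membrane, the main control point of entry. It measured 12.5, 12.99, 11.97 and 11.8 FPKM in DMSO 1 to 4 and 13.5, 11.8, 12.2 and 12.2 FPKM in DoxSa 1 to 4, so the groups overlapped. Its log2 difference was 0.01 ± 0.05 (SE, 95% interval -0.10 to 0.12, adjusted p = 0.944). Slc25a20, the carrier that exchanges acylcarnitine for carnitine across the inner membrane, measured 29.02 ± 1.33 FPKM under DMSO and 27.7 ± 2.10 FPKM under DoxSa (SD, n = 4), with DoxSa 3 and DoxSa 4 lowest at 25.5 and 26.3 FPKM. Cpt2, which reforms acyl-CoA on the matrix side, measured 45.6 ± 0.814 and 44.6 ± 0.859 FPKM. Neither was called (adjusted p = 0.550 and 0.647). Cpt1b, the muscle-type isoform of the entry enzyme, had 1, 0, 1 and 0 reads in DMSO 1 to 4 and 3, 2, 0 and 0 reads in DoxSa 1 to 4, too few for any comparison. These cultures thus expressed the entry enzyme as its liver-type isoform in both treatments.

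Acyl-CoA dehydrogenases start each turn of the mitochondrial cycle and differ in the chain length they accept. Acadvl, the very long chain enzyme, measured 94.0, 95.6, 93.5 and 93.7 FPKM in DMSO 1 to 4 and 91.1, 85.7, 87.4 and 85.9 FPKM in DoxSa 1 to 4. Every DoxSa library lay below every DMSO library, with DoxSa 1 nearest to them. The log2 difference was -0.10 ± 0.03 (SE, 95% interval -0.17 to -0.04), which did not pass the test (adjusted p = 0.0749). With median-of-ratios scaling between libraries Acadvl was called (-0.12, adjusted p = 0.0369). Acadl, the long chain enzyme, measured 111 ± 2.60 FPKM under DMSO and 109.6 ± 2.85 FPKM under DoxSa (SD, n = 4). Acadm, the medium chain enzyme, measured 95.8 ± 3.05 and 92.5 ± 1.79 FPKM and Acads, the short chain enzyme, 46.9 ± 1.35 and 46.0 ± 0.614 FPKM. Groups overlapped for these 3 genes and their adjusted p lay between 0.443 and 0.854.

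The later steps of the mitochondrial cycle are carried out for long chains by the trifunctional protein, a complex of the alpha subunit Hadha and the beta subunit Hadhb, and for shorter chains by the dehydrogenase Hadh and the thiolase Acaa2. Hadha measured 106, 105, 108 and 114 FPKM in DMSO 1 to 4 and 109, 102, 109 and 108 FPKM in DoxSa 1 to 4, with a log2 difference of -0.02 ± 0.04 (SE, adjusted p = 0.855). Hadhb measured 28.4, 28.5, 28.9 and 28.7 FPKM in DMSO 1 to 4 and 27.0, 26.8, 26.6 and 28.2 FPKM in DoxSa 1 to 4. Its groups did not overlap, but the difference of -0.07 ± 0.03 did not pass the test (adjusted p = 0.233). Reads of Hadhb were 54.9% to 59.4% of those of Hadha in DMSO and 53.3% to 57.3% in DoxSa, and these ranges overlapped. Hadh measured 114 ± 2.21 and 111 ± 1.46 FPKM and Acaa2 78.6 ± 1.51 and 80.3 ± 0.921 FPKM (SD, n = 4), also without a call.

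Hadha and Hadhb stand head to head on chromosome 5, and their annotated starts in RefSeq (build GRCm38.p6, not the GRCm39 build of the deposited values) are separated by 272 bases. The upstream sequence is shown because both subunits of the complex are transcribed away from it. It runs from chr5:30155003-30155252 on the plus strand, which leads into Hadhb. Capitals mark GGGCGG, the box bound by Sp1-type factors, on either strand. The box CCAAT and the hexamer AGGTCA, the unit recognised by PPAR and related nuclear receptors, are not among these letters.
Hadhb upstream: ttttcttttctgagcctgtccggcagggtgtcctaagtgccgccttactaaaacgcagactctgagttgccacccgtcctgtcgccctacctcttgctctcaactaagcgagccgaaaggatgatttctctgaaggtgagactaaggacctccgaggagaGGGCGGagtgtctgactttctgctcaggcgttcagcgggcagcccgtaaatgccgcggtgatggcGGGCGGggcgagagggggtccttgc

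Auxiliary enzymes that let unsaturated chains through the mitochondrial cycle were likewise not called. Decr1, which reduces dienoyl-CoA, measured 51.0 ± 0.979 FPKM under DMSO and 50.8 ± 0.942 FPKM under DoxSa (SD, n = 4). Eci1, which moves double bonds, measured 52.7, 54.5, 56.6 and 55.3 FPKM in DMSO 1 to 4 and 58.5, 56.2, 55.6 and 56.0 FPKM in DoxSa 1 to 4. DoxSa 1 was the highest, and the groups overlapped (log2 difference 0.05 ± 0.03, SE, adjusted p = 0.505). The electron transfer flavoprotein takes electrons from the dehydrogenases, and its subunits Etfa and Etfb measured 20.5 ± 0.236 and 20.4 ± 0.468 FPKM (Etfa) and 201 ± 6.94 and 205 ± 10.5 FPKM (Etfb) under DMSO and DoxSa. Etfdh, which passes the electrons on to ubiquinone, measured 47.2 ± 1.53 and 47.1 ± 1.64 FPKM. All 3 electron transfer genes had 95% intervals within a 1.1-fold change, and their adjusted p lay between 0.834 and 0.9755.

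Of the 4 peroxisomal enzymes, Acaa1b fell and the other 3 did not pass the test. Acaa1b measured 5.03, 5.74, 5.70 and 5.49 FPKM in DMSO 1 to 4 and 4.30, 3.91, 4.54 and 5.09 FPKM in DoxSa 1 to 4. The groups overlapped at 1 point, since DoxSa 4 lay above DMSO 1. Means were 5.49 ± 0.328 and 4.46 ± 0.492 FPKM (SD, n = 4), a log2 difference of -0.25 ± 0.07 (SE, 95% interval -0.40 to -0.11, limma adjusted p = 0.0488). On the recovered reads, 460 to 520 in DMSO and 348 to 471 in DoxSa, limma-voom gave -0.30 (adjusted p = 0.0466). This call is at the edge of the threshold. It was lost without DMSO 2, 3 or 4 (adjusted p = 0.127, 0.109 and 0.0871) and without DoxSa 1, 2 or 3 (adjusted p = 0.123, 0.124 and 0.0910), with the replicate number as a block (0.0617) and with no filter on low values (0.159), while the difference stayed negative, from -0.31 to -0.20 over all alternatives.

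Several marker lists differed between the same groups. Summed smooth muscle and pericyte markers were 588 to 655 FPKM under DMSO and 412 to 467 FPKM under DoxSa, and 4 of 6 tested members fell. These were Acta2, Tagln, Myh11 and Cnn1. Of the rest of the list, Cspg4 (means of 4.04 and 4.40 FPKM) and Notch3 (3.11 and 2.76 FPKM) were not called. Rgs5, below the level filter, was at 0.092 and 0.127 FPKM. Of 14 macrophage markers 3 rose (Cd14, Fcgr1 and Ptprc), and the summed level was 6832 to 7833 FPKM under DMSO and 7622 to 8127 FPKM under DoxSa. Of 14 adipocyte markers 1 fell (Retn), with sums of 12639 to 13046 and 12625 to 13321 FPKM. Groups were also apart for the low sums of endothelial markers (1.35 to 1.79 and 1.80 to 2.13 FPKM), mesothelial markers (16.8 to 17.3 and 11.6 to 16.2 FPKM) and skeletal muscle markers (3.57 to 4.33 and 2.72 to 3.27 FPKM). Genes within the endothelial and mesothelial lists did not all move alike. The mesothelial sum was mostly Krt19 (means of 16.5 and 13.9 FPKM, not called), while Msln and Lrrn4 were higher under DoxSa. Among endothelial markers Tek was lower (0.488 and 0.397 FPKM), while Pecam1 (0.459 and 0.585 FPKM) and Cdh5 (0.355 and 0.564 FPKM) were higher. Brown and beige, progenitor, and lymphocyte and mast cell markers overlapped between groups. Of the listed markers present among the measured genes none was at 0 in all libraries, although Cd3e, a T cell gene, had at most 1 read. Only 5 of 7 lymphocyte and mast cell markers and 5 of 6 mesothelial markers were present. Of the 13 protein-coding genes of the mitochondrial genome, which are sensitive to RNA quality and to the amount of mitochondrial RNA, 0 were called, 10 had a negative difference, and the groups did not overlap for 3 (ATP6, COX1 and CYTB, all lower under DoxSa). They took 3.49% to 3.94% of the reads in DMSO and 3.30% to 3.59% in DoxSa, overlapping ranges, with a median log2 difference of -0.18 and a lowest adjusted p of 0.0600 (limma). The part of these marker differences and of mitochondrial RNA in the fall of Acaa1b, or in the lower values of Acadvl and Hadhb, was not tested.

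Its close copy Acaa1a, also a peroxisomal thiolase, was more abundant and was not called. The difference between the responses of the 2 copies was not tested. Acaa1a measured 53.3, 55.1, 52.5 and 51.3 FPKM in DMSO 1 to 4 and 54.6, 53.2, 53.3 and 50.8 FPKM in DoxSa 1 to 4 (log2 difference -0.00071 ± 0.04, SE, adjusted p = 0.996). Acaa1b thus stood at 9.43% to 10.9% of the Acaa1a level in DMSO and at 7.35% to 10.01% in DoxSa, with DoxSa 4 inside the DMSO range. The summed level of the pair was 58.5 ± 1.67 FPKM under DMSO and 57.5 ± 1.28 FPKM under DoxSa (SD, n = 4). Near-identical copies can share reads. Of windows of 50 bases along the longest coding Acaa1b transcript of GENCODE M21, 35.5% occur exactly in Acaa1a transcripts, and of windows of 100 bases 22.6%, so the values of Acaa1b are uncertain to the extent that the counting divided or dropped such reads.

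**Figure D3:**
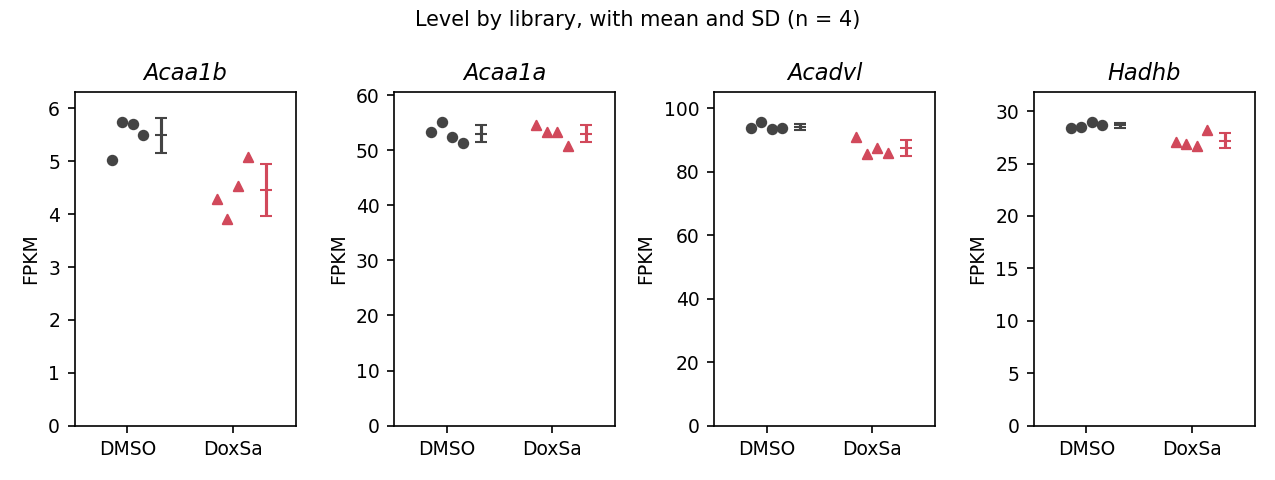
FPKM of Acaa1b, Acaa1a, Acadvl and Hadhb in each library (circles DMSO, triangles DoxSa), with mean and SD (n = 4) beside the points and each axis from 0. Acaa1b has means of 5.49 and 4.46 FPKM with DoxSa 4 above DMSO 1, Acaa1a overlaps throughout, and Acadvl and Hadhb have groups apart by small steps.

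The upstream sequences of this pair are shown because the copies share coding sequence but stand at different levels and differed in whether they were called. They come from RefSeq (build GRCm38.p6) and each ends at the base before the annotated start. The Acaa1a sequence is chr9:119341044-119341293 on the plus strand and the Acaa1b sequence is chr9:119157094-119157343 on the minus strand. Capitals mark CCAAT and GGGCGG on either strand.
Acaa1a upstream: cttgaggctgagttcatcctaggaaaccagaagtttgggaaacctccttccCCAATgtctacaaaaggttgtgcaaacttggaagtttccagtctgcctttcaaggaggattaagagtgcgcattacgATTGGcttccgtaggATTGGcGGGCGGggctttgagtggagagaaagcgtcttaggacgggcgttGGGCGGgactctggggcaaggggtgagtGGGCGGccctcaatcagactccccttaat
Acaa1b upstream: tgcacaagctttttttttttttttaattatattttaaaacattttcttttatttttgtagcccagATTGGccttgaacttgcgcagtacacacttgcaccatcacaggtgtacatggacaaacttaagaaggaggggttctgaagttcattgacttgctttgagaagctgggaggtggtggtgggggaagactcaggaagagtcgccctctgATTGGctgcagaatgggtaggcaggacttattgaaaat

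GGGCGG stood 3 times in the Acaa1a window and 0 times in the Acaa1b window, and CCAAT 3 and 2 times. G and C made up 53.6% and 41.6% of the letters. Of the 29 members 24 matched a RefSeq promoter, and Cpt1b, Acaa2, Decr1, Hsd17b4 and Crat did not. GGGCGG was found in 15 of the 24 windows of 250 bases (62.5%), where 32.7% of all 32851 promoter windows hold it, and CCAAT in 12 (50%), where 33.9% do. The windows of Hadha and Hadhb, both among the 15, overlap by 228 bases, so they are not separate stretches. AGGTCA was found in 3 (12.5%), those of Cpt1a, Acadvl and Acadm, beside 14.0% of all windows. The direct repeat of this hexamer with 1 base between, AGGTCANAGGTCA, which is the PPAR element in its strict form, was found in 0 of the 24 windows on either strand and in 0.0335% of all windows, and with up to 2 mismatches in that of Etfa alone, beside 3.24%. These windows are short, and a match or its absence describes only these letters.

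Ehhadh, the multifunctional enzyme of the straight-chain peroxisomal pathway and a classical PPAR alpha target, measured 6.501, 8.06, 6.69 and 6.47 FPKM in DMSO 1 to 4 and 7.39, 5.97, 6.34 and 5.79 FPKM in DoxSa 1 to 4. DMSO 2 stood above its group, and the groups overlapped (log2 difference -0.11 ± 0.08, SE, 95% interval -0.28 to 0.07, adjusted p = 0.515). Hsd17b4, the multifunctional enzyme for branched and very long chains, measured 58.3 ± 1.03 FPKM under DMSO and 58.7 ± 1.36 FPKM under DoxSa (SD, n = 4, adjusted p = 0.907). The intervals of Acaa1a and Hsd17b4 lay within a 1.1-fold change, whereas those of Ehhadh and Acaa1b reached beyond 1.2-fold.

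Of the 3 enzymes found in both organelles 0 were called. Crat, which transfers short acyl groups to carnitine, measured 31.3 ± 0.483 FPKM under DMSO and 31.1 ± 1.27 FPKM under DoxSa (SD, n = 4). Ech1, an isomerase for dienoyl-CoA, measured 186, 185, 184 and 192 FPKM in DMSO 1 to 4 and 189, 182, 188 and 188 FPKM in DoxSa 1 to 4, with overlapping groups. Eci2, an isomerase of enoyl-CoA, measured 24.3 ± 0.983 and 24.2 ± 0.803 FPKM. Their log2 differences lay between -0.0097 and -0.00099, and all 3 intervals lay within a 1.1-fold change.

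Acyl-CoA thioesterases release free fatty acid from CoA, Acot1 in the cytosol and Acot2 in mitochondria. Acot2 measured 6.64, 7.15, 5.66 and 6.64 FPKM in DMSO 1 to 4 and 7.41, 7.64, 6.92 and 6.43 FPKM in DoxSa 1 to 4, a log2 difference of 0.11 ± 0.07 (SE, 95% interval -0.04 to 0.26, adjusted p = 0.420). It was the largest positive difference of the 26 tested members, and the groups overlapped. Acot1 was close to the limit of detection, with 49, 36, 45 and 31 reads in DMSO 1 to 4 and 13, 39, 37 and 37 reads in DoxSa 1 to 4. DoxSa 1 alone was low, and the difference did not pass the test (-0.14 ± 0.10, adjusted p = 0.485). On the scale of reads it was -0.47 with an interval of -1.15 to 0.22, which includes 0 and does not bound a fall closely. With DoxSa 1 left out, the difference on log2(FPKM + 1) was -0.04. These genes also share sequence: 23.7% of windows of 50 bases of the longest Acot1 transcript occur in Acot2 transcripts.

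Of the 3 regulators, Pdk4 alone was above the filter and was not called, while Ppara and Ppargc1a were expressed at low levels. Pdk4, a kinase that closes pyruvate dehydrogenase and spares glucose when fatty acids are burnt, measured 6.61, 7.06, 6.13 and 6.16 FPKM in DMSO 1 to 4 and 6.39, 5.26, 6.69 and 6.40 FPKM in DoxSa 1 to 4. DoxSa 2 was the lowest, and the groups overlapped (log2 difference -0.06 ± 0.07, SE, adjusted p = 0.680). Ppara, the gene of PPAR alpha, measured 0.306 ± 0.0658 FPKM under DMSO and 0.271 ± 0.0278 FPKM under DoxSa (SD, n = 4), from 101 to 159 reads per library. Ppargc1a, the gene of PGC-1 alpha, measured 0.325 ± 0.0593 and 0.283 ± 0.0449 FPKM, from 114 to 213 reads. Both lay under the FPKM filter although they had more reads than Acot1, which passed it. When limma-voom was run on genes with a mean of at least 20 reads, an alternative chosen after seeing the data, the log2 differences were -0.16 for Ppara (95% interval -0.51 to 0.20, adjusted p = 0.685) and -0.19 for Ppargc1a (-0.52 to 0.14, adjusted p = 0.563). Both intervals reach well past a 1.2-fold change.

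Mitochondrial and peroxisomal enzymes were set side by side. Of 17 tested mitochondrial enzymes 0 were called, with a median log2 difference of -0.02 and a range of -0.10 to 0.11. All 17 intervals on log2(FPKM + 1) lay within a 1.2-fold change. By limma-voom on the recovered reads 16 did, and the interval of Acot2, from -0.05 to 0.30, reached beyond it. Of 4 peroxisomal enzymes 1 was called, with a median of -0.05 and a range of -0.25 to 0.01, and 2 of 4 intervals lay within a 1.2-fold change. Those 2 were Acaa1a and Hsd17b4, with means of 53.0 and 58.5 FPKM. Acaa1b and Ehhadh, with wider intervals, had means of 4.97 and 6.65 FPKM. Acot2, at 6.81 FPKM, was the lowest of the tested mitochondrial enzymes. The part of level in this contrast was not tested. The 18 mitochondrial enzymes summed to 1134, 1162, 1137 and 1148 FPKM in DMSO 1 to 4 and to 1166, 1126, 1112 and 1124 FPKM in DoxSa 1 to 4. The 4 peroxisomal enzymes summed to 121.7, 127, 124 and 121.8 FPKM in DMSO 1 to 4 and to 127, 122, 122 and 119 FPKM in DoxSa 1 to 4. Both sums overlapped between groups, and the peroxisomal sum was 10.8% ± 0.159 of the mitochondrial sum in DMSO and 10.8% ± 0.157 in DoxSa (SD, n = 4).

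A measure that weights each gene equally gave a different picture from the sums. For each library the mean deviation of peroxisomal genes from their own mean over the 8 libraries, in log2(FPKM + 1), was set against that of the mitochondrial genes. Among DMSO libraries 1 to 4 this difference was -0.0011, 0.09, 0.06 and -0.00080, and among DoxSa libraries 1 to 4 it was -0.02, -0.09, -0.0096 and -0.03, so every DoxSa library lay below every DMSO library. With Acaa1b left out, a step taken after its value was seen, the ranges were -0.04 to 0.07 in DMSO and -0.06 to 0.04 in DoxSa and overlapped. The measure is a score over chosen genes and was given no test.

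**Figure D4:**
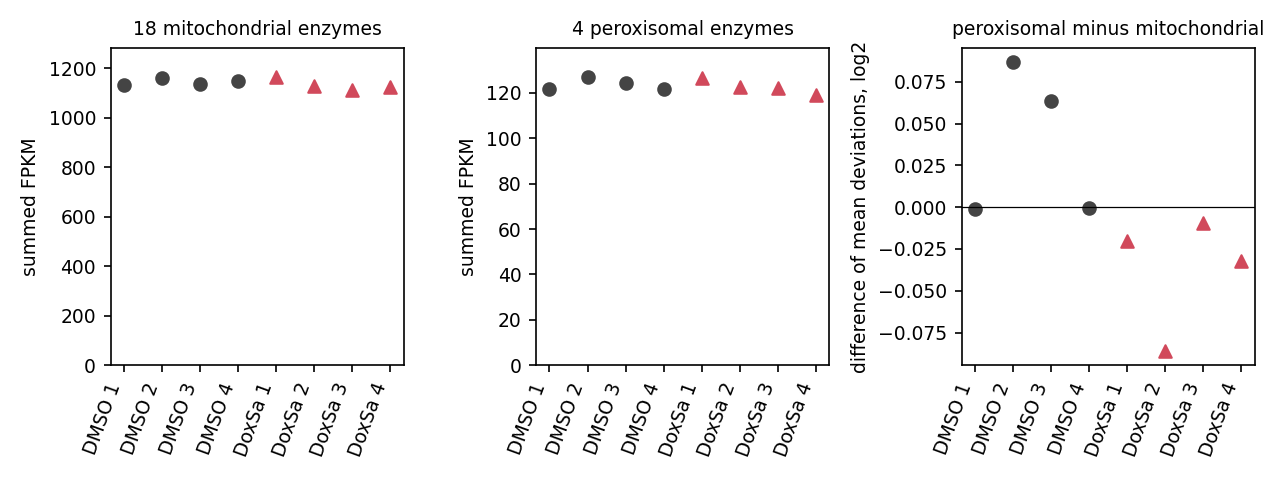
Left and middle, summed FPKM of the 18 mitochondrial and the 4 peroxisomal enzymes in each library, on axes from 0; right, the mean log2 deviation of peroxisomal minus that of mitochondrial genes (circles DMSO, triangles DoxSa). The sums overlap between groups, while the right panel runs from -0.0011 to 0.09 for DMSO and from -0.09 to -0.0096 for DoxSa.

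Among themselves the members covered a wide range of levels. By mean FPKM over the 8 libraries, Etfb (203 FPKM) and Ech1 (187 FPKM) stood highest, followed by Hadh, Acadl and Hadha (112.5, 110.1 and 107.6 FPKM), whose library values overlapped and which could not be ranked. The 17 tested mitochondrial enzymes had a median at the 89.6th percentile of tested genes and the 4 peroxisomal ones at the 69.2th. Acaa1b, Ehhadh, Pdk4 and Acot2 formed a group between 4.97 and 6.81 FPKM, and Acot1, Ppargc1a, Ppara and Cpt1b lay under 1 FPKM.

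Levels between genes depend on the length by which reads were divided. For some members that length was far from the longest coding transcript in GENCODE M21, and other transcripts were not compared. The length recovered from the table was 9685 bases for Etfa, 6.96 times its longest coding transcript in GENCODE M21, and 5922 bases for Hadhb, 2.89 times. It was 3.06 times for Ppara, 2.01 times for Ppargc1a and 1.89 times for Eci2, and 0.676 times for Hadha. By FPKM, Etfb stood 9.91-fold above Etfa and Hadha 3.85-fold above Hadhb, although each pair forms a complex. Dividing reads by the longest coding transcript, an alternative chosen after seeing the data, gave 1.44-fold and 0.901-fold. On that scale the order of levels given above changed. Etfa stood at 142 in the unit of FPKM, above Hadh, Acadl and Hadha (112.5, 112 and 72.7). Ppara stood at 0.882 and Ppargc1a at 0.612 on the same scale, above the 0.5 used as the filter. Differences between treatments for 1 gene do not depend on its length, apart from the added 1 in the log.

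**Figure D5:**
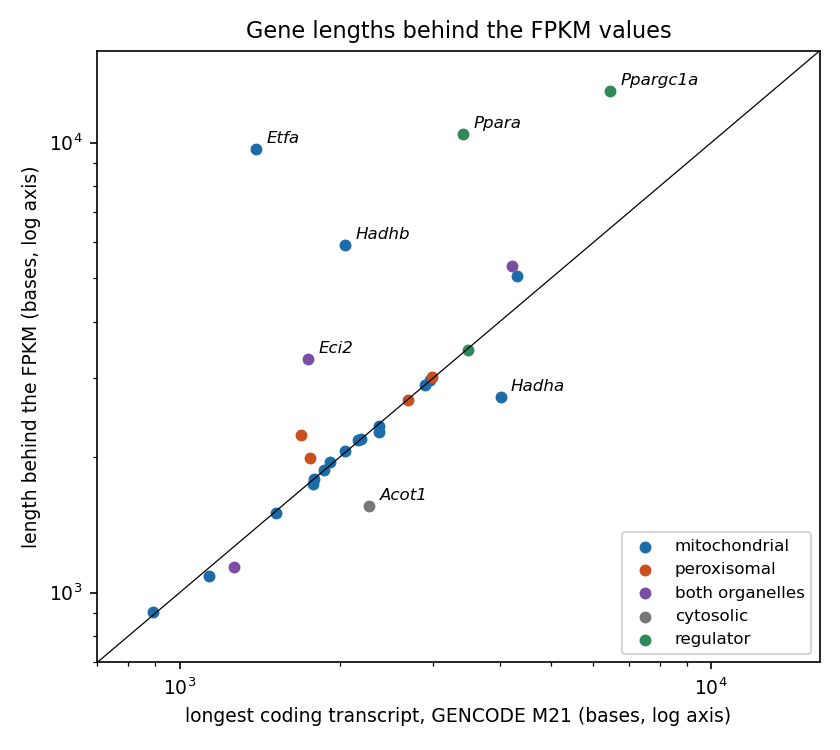
Gene length behind the FPKM values against the longest coding transcript in GENCODE M21 for the 29 members, both on log axes, with the line of equal length. Etfa and Hadhb lie 6.96 and 2.89 times above it, and Hadha lies below it at 0.676 times.

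Genes of the wider pathway were also mostly uncalled. Over 7 lists of related genes, 132 were tested, 1 rose and 0 fell (0.758%, beside the 5.90% of all tested genes), with a median log2 difference of -0.02. The gene that rose was Acsl4, from the list of fatty acid activation (1 of 10 tested), which couples arachidonic and other polyunsaturated acids to CoA. It measured 14.9, 15.4, 16.2 and 16.7 FPKM in DMSO 1 to 4 and 21.6, 19.1, 19.5 and 20.04 FPKM in DoxSa 1 to 4, with groups apart and a log2 difference of 0.32 ± 0.05 (SE, 95% interval 0.22 to 0.43, adjusted p = 0.00308). It was called in every one of the 16 alternative settings.

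In the other 6 lists 0 genes were called, and the most abundant gene of each is named by rule. Of 25 other mitochondrial acyl-CoA enzymes, Echs1, which hydrates short enoyl-CoA, measured 158 ± 4.07 FPKM under DMSO and 152 ± 2.60 FPKM under DoxSa (SD, n = 4, adjusted p = 0.346). In the list of other peroxisomal lipid enzymes, with 34 tested genes, it was Mgst1, at 314 ± 10.4 and 312 ± 11.5 FPKM. Mgst1 is a glutathione transferase and stands there by the choice of the list. Of 16 peroxins, the proteins that build peroxisomes, it was Pex19, a receptor for membrane proteins, at 55.2 ± 1.58 and 52.7 ± 1.09 FPKM. Acaca, which makes malonyl-CoA, the inhibitor of the entry step, led 8 genes of malonyl-CoA and carnitine supply with 66.5 ± 7.17 and 60.5 ± 6.24 FPKM. Oxct1, an enzyme of ketone use, led 4 ketone body genes with 90.6 ± 0.363 and 91.8 ± 1.04 FPKM. G0s2, an inhibitor of the lipase Pnpla2, led 36 other regulators and PPAR targets with 769 ± 15.6 and 735 ± 38.6 FPKM. Across these 6 lists the median log2 difference lay between -0.03 and 0.03.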

How the data were processed

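HISAT2 and HTSeq are the tools, and GRCm39 the build, named per the submitters' processing notes, without versions, annotation or strand setting. FPKM values were computed by the authors and deposited as 1 table. Its low values step by the worth of 1 read, from which library totals, gene lengths and reads were recovered (whole within 0.001 for 12060 of 12060 tested genes). Samples were grouped by title. The test was limma 3.58.1 (R 4.3.3) on log2(FPKM + 1), eBayes with trend, with genes under a mean of 0.5 FPKM left out, Benjamini-Hochberg over all 12060 genes. The members and lists were chosen with earlier results of these data known. All 29 members are named, and of each wider list up to 3 called genes per direction or else the most abundant gene. A single table of 12060 genes was simulated (DoxSa against DMSO, 4 against 4), with 40 changed genes per fold and the same dispersion, 0.00229, for every gene. In it 5.0% of genes changed 1.1-fold, 57.5% changed 1.2-fold, 82.5% changed 1.3-fold and 100% changed 1.5-fold were called. Of 11860 unchanged genes 14 were called. Spread differs between genes in the real data, so these rates hold for that setting alone. No pair of libraries in a group agreed within sampling noise (lowest chi-square over degrees of freedom 4.95). The 13 mitochondrially encoded genes were matched by Entrez ID, and 2 red blood cell genes had at most 1 read. Alternatives were another pseudocount (0.1), filters, scalings, limma-voom on reads, a replicate block and each library left out. Python 3.11.15 and matplotlib 3.10.9 were used.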

Additional observations from a re-analysis of the deposited data

Results flagged for a closer look

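In 58 groups of 4 libraries (26 genes and 3 sums in each treatment), 3 held a library far from the other 3 by Dixon's gap test, and chance flags about 1 in 20 groups. Acot1 in DoxSa 1 was at 0.202 FPKM, from 13 reads, where the other DoxSa libraries lay between 0.574 and 0.630 FPKM. Ehhadh in DMSO 2 was at 8.06 FPKM, where the other DMSO libraries lay between 6.47 and 6.69 FPKM. Acads in DoxSa 1 was at 46.9 FPKM, where the other DoxSa libraries lay between 45.6 and 45.7 FPKM, a gap of little size beside the DMSO range of 45.7 to 48.7 FPKM.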

How the results depend on the processing

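Of 415 values of the 26 tested members under 16 alternatives, 406 kept their side of the threshold, 8 lost a call (all of Acaa1b) and 1 gained it (Acadvl with median-of-ratios scaling). With no filter on low values or with the replicate block, 0 members were called lower (Acaa1b adjusted p = 0.159 and 0.0617), and with median-of-ratios scaling 2 were. Over left-out libraries 0 to 1 members were called lower. The cause was not tested. Genes of the wider pathway lists called higher numbered 1 to 2 over left-out libraries, with 2 without DMSO 4. Over all genes, 158 were higher and 108 lower with no filter, in place of 468 and 244, where more genes were tested, and 234 to 486 were higher and 152 to 234 lower over left-out libraries. The lowest were without DoxSa 2 (234 and 152), with 250 and 154 without DoxSa 1 and 158 lower without DMSO 2. By quantile normalization 384 were higher and 316 lower. Samples shared only a replicate number: the correlation of deviations of same-numbered samples ran from -0.0989 to 0.0654, and with the replicate block 415 genes were higher and 209 lower. Ratios of Etfb to Etfa and of Hadha to Hadhb moved with gene length to 1.44 and 0.901. The median of mitochondrial and of peroxisomal differences kept its sign in all 16. Low reads limit Acot1, Ppara, Ppargc1a and Cpt1b.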
